A study of Mus musculus with 27 samples.

Results

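The genes described here mark T lymphocytes and natural killer (NK) cells, and they were chosen by name: 41 genes of 43460 names in a count table made from mouse epididymal white adipose tissue, a visceral fat depot lying by the testis. All 41 were found, and 40 had enough reads to be tested. Fat was sampled as mice gained, lost and regained weight, in 27 libraries, 3 for each of 9 groups. The labels do not say that the libraries of a group came from separate mice, so the p-values speak only of library-to-library spread, which may be technical.

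All mice were C57BL/6N, and the groups differed in diet and age. The initial group was 5 weeks old, before any treatment period. Normal diet was fed for 8 weeks to control8 (13 weeks old), for 12 weeks to control12 (17 weeks old) and for 16 weeks to control16 (21 weeks old). The gain8 group ate a high-fat diet with 60% of energy from fat for 8 weeks and was 13 weeks old. The loss group was returned to normal diet for the last 4 weeks and was 17 weeks old. The maintenance group was returned to normal diet for the last 8 weeks, and the regain group was given the high-fat diet again for 4 weeks after the loss phase. The gain4 group ate the high-fat diet for 4 weeks, and its labels do not state what it ate earlier in its 16 weeks of treatment. These last 3 groups were 21 weeks old, the age of control16.

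T cells recognise peptide through a receptor whose signal is carried into the cell by the CD3 chains and the zeta chain Cd247, and then by the kinases Lck and Zap70 and the adaptor Lat. CD4 T cells help or restrain other immune cells, and those with the transcription factor Foxp3 are regulatory cells, which are known for their abundance in visceral fat. CD8 T cells and NK cells kill target cells by releasing perforin and granzymes, and CD8 T cells are known to accumulate in the fat of obese mice. In whole tissue a transcript level cannot tell fewer cells of a type apart from less RNA per cell.

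Start-site sequences are shown for 4 members whose values follow. Of these, Cd3e, Cd8a and Gzmb were highest in replicate 2 within gain8 and in replicate 3 within regain. Cd8a and Gzmb were also above all control16 libraries in regain replicate 1. Il7r was high in all libraries of gain8 and regain. The sequences run from 250 bases before to 50 bases after the start of transcription given by RefSeq on GRCm38.p6. The collection of start-site sequences used here held 31 of the 41 members. Capitals mark matches, on either strand, to TGTGGT (the core bound by RUNX factors), AGGAAG (ETS factors), TCACACC (T-box factors) or CTTTGA (TCF and LEF factors). These motifs were chosen after the values were seen. The Cd3e sequence lies on the minus strand at chr9:45009562-45009861, Cd8a on the plus strand at chr6:71373177-71373476, Gzmb on the minus strand at chr14:56262285-56262584 and Il7r on the minus strand at chr15:9529827-9530126.
Cd3e: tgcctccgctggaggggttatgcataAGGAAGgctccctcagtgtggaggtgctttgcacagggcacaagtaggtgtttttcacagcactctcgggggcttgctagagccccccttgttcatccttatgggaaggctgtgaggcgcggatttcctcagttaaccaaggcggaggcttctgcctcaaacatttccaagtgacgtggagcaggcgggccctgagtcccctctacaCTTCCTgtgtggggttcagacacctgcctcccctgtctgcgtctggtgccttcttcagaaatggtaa
Cd8a: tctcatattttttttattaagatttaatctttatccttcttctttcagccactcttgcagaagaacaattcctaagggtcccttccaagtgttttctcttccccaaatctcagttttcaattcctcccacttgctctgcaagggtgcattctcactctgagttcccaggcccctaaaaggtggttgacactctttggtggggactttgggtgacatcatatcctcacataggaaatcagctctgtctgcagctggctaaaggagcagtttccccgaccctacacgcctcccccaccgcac
Gzmb: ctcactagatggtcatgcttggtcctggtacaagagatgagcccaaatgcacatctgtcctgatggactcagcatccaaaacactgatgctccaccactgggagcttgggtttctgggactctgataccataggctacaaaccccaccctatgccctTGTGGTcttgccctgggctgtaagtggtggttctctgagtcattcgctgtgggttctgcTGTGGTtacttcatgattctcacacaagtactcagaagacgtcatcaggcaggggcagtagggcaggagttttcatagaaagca
Il7r: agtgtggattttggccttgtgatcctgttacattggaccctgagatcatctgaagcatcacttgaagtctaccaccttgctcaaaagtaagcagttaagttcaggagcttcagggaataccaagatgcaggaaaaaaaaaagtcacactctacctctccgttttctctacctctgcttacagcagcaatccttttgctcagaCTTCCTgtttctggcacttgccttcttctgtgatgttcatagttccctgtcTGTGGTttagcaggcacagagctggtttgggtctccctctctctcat
Cd3e held 2 ETS matches, Gzmb 2 RUNX matches, Il7r 1 of each, and Cd8a none of these letters in this window. The RUNX core was present in 11 of 31 member sequences (35.5%) against 16.9% of all 27025 sequences in the table. The ETS core was in 15 (48.4%) against 35.1%, the T-box core in 3 (9.68%) against 3.96%, and the TCF and LEF core in 9 (29%) against 16.2%. The start used by RefSeq can differ from that of the GENCODE gene spans given below, and the Il7r sequence lies wholly inside its GENCODE span. A match is a run of letters and not a measured site.

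Libraries held 26479773 to 32728594 counts, and levels are library-size-scaled counts (CPM, with TMM factors). At this depth the members were scarce: their reads summed over 27 libraries ran from 134 for Ifng to 27465 for Il7r, and 24 of 40 had a median under 50 reads per library. Trat1, an adaptor beside the receptor, was the untested member, with 79 reads in all and at most 0.412 CPM. Fold changes are log2 with the standard error (SE) from edgeR's quasi-likelihood test, and genes with an adjusted p under 0.05 over 17821 genes are termed called. Libraries fell into 15 with high Lars2 (1325 to 4104 CPM) and 12 with low Lars2 (97.5 to 212 CPM). The initial libraries were all in the high set, and each other group had libraries in both sets. Maintenance replicate 3 stood apart with 5233 CPM of albumin, against 13.3 to 14.6 CPM in the other maintenance libraries. The constant regions of the T cell receptor, which are not members, bear on the label: Trbc1 was 1.67, 8.98 and 1.63 CPM in gain8 and 7.23, 1.05 and 7.75 CPM in regain, high in the same libraries as the CD3 genes. Of the 6 constant regions tested, 4 had log2 fold changes above 0 in gain8 against control8 and 2 below, and the 1 called was the gamma chain gene Tcrg-C1, which was lower (-1.62 ± 0.50, adjusted p = 0.0247). Trac followed the CD3 genes except in maintenance replicate 3, where it was 14.7 CPM beside 0.574 CPM of Trbc1.

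The members were carried to a large extent by single libraries. Regain replicate 3 had the highest level of all 27 libraries for 32 of 40 members, and regain replicate 2 was the lowest of its group for 33. Within gain8, replicate 2 was highest for 35 members and replicate 3 lowest for 29. The mean log2 CPM over members was 1.60, 0.57 and 2.79 in the regain libraries and 0.88, 1.87 and 0.44 in the gain8 libraries. The highest and the lowest library of gain8 both had low Lars2, and those of regain both had high Lars2. The ratio of the highest to the lowest library had a median over members of 5.67 in regain and 3.11 in gain8, against 1.40 and 1.31 over all genes. In maintenance it was 2.69, against 1.80, and in the remaining groups it was between 1.36 and 1.86, against 1.21 to 1.66.

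**Figure D1:**
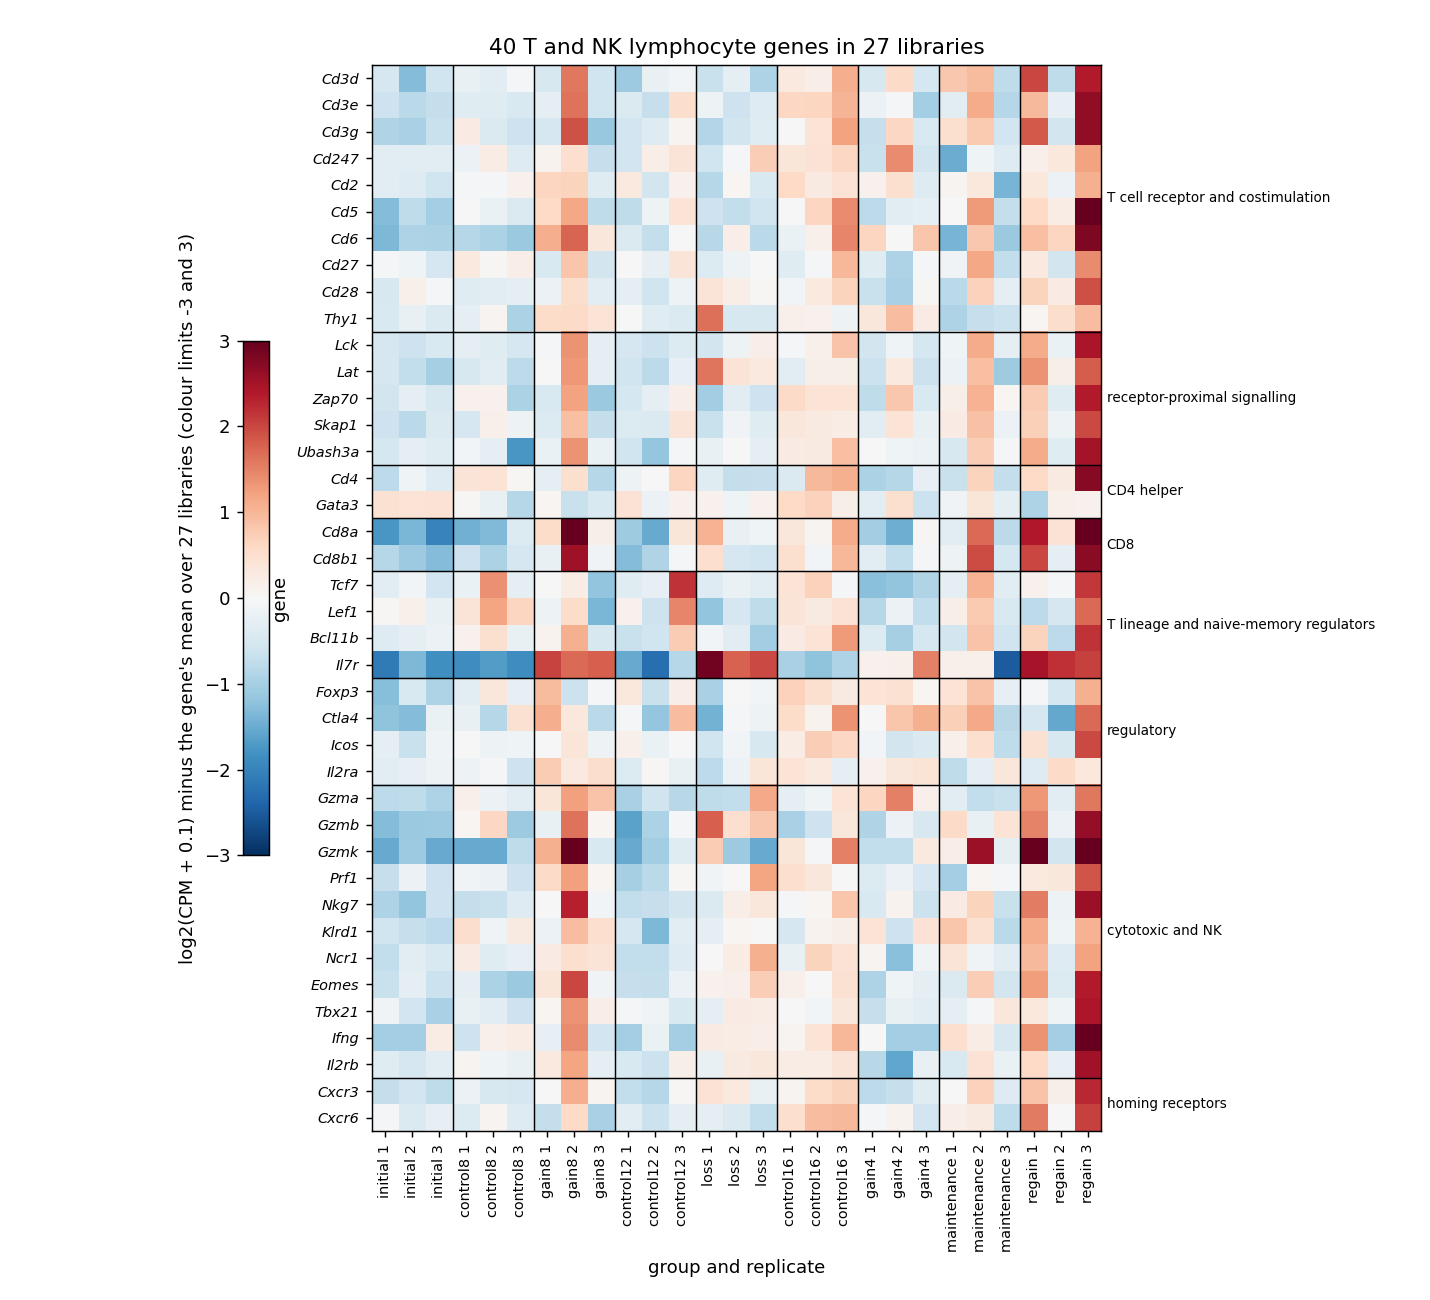
Level of 40 members (rows, by role) in 27 libraries (columns, by group and replicate), as log2(CPM + 0.1) minus each gene's mean over the libraries. Regain replicate 3 and gain8 replicate 2 stand out as columns of high values in most roles, while Il7r is high in all libraries of gain8, loss and regain.

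Many members shared the order of the libraries within a group. Taking Cd3e, a chain of the receptor complex (chr9:44998740-45009627, minus strand, GENCODE on GRCm38), as the reference, 10 of 39 other members had their highest library in the same place in at least 7 of 9 groups, against 0.864% of all genes. These were Cd3d, Cd3g, Cd247, Cd27, Lck, Lat, Cd8b1, Eomes, Cxcr3 and Cxcr6. The median member matched in 6 groups and the median gene in 3. The members least like Cd3e were Il2ra, with 0 groups, and Il7r and Foxp3, with 3 each. Thy1, a surface protein of T cells that other cells of fat also carry, matched in 4.

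The first comparison was 8 weeks of high-fat diet against age-matched normal diet. In gain8, 6 of 40 members were called higher than in control8 and 0 lower, against 12% of all genes called higher. They were Il7r, the interleukin-7 receptor chain, the CD8 chain Cd8a, the T cell surface protein Cd6, the granzyme Gzmk, the granule protein Nkg7 and the transcription factor Eomes of cytotoxic cells. The median member was 0.80 higher on the log2 scale (all genes: -0.02), and 35 of 40 were above 0. All 3 gain8 libraries lay above all 3 control8 libraries for 14 members, where 26.5% of all genes did so.

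Il7r (chr15:9505788-9530176, minus strand) was 4.84, 5.59 and 4.87 CPM in control8 and 73.9, 58.8 and 62.0 CPM in gain8. No gain8 library came near a control library, and the difference was 3.67 ± 0.53 (adjusted p = 0.000156). Macrophage markers moved in the same libraries: 7 of 8 were called higher, and their summed level was 1073 to 1448 CPM in control8 and 4094, 4717 and 4263 CPM in gain8. Within gain8 the orders differed. Replicate 1 had the most Il7r and the lowest marker sum, and replicate 2 the least Il7r and the highest sum. The part of macrophages in the Il7r result was not tested.

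Cd8a (chr6:71373427-71379173, plus strand), the CD8 alpha chain, was 0.247, 0.276 and 0.604 CPM in control8 and 1.28, 8.03 and 0.955 CPM in gain8. The groups did not overlap, but 1 gain8 library was several times higher than the others. The difference was 3.18 ± 0.92 (adjusted p = 0.0178). Its partner Cd8b1 was 0.493, 0.369 and 0.537 CPM in control8 and 0.675, 5.20 and 0.742 CPM in gain8, a difference of 2.23 ± 0.81 that missed the threshold (adjusted p = 0.0539).

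Among the genes of killer cells, Nkg7 was 1.54, 1.60 and 1.95 CPM in control8 and 2.56, 13.4 and 2.44 CPM in gain8 (1.85 ± 0.60, adjusted p = 0.0303). Eomes was 0.555, 0.307 and 0.269 CPM in control8 and 0.924, 3.09 and 0.636 CPM in gain8 (2.03 ± 0.63, adjusted p = 0.0251). Both were higher in every gain8 library and several times higher in replicate 2. Gzmk had 2 reads in control8 and 94 in gain8, of which replicate 2 held most at 2.62 CPM, with 0.498 and 0.106 CPM in the others. Its ratio was 51.9 with a 95% counting interval of 14.0 to 435, which covers counting error only (5.40 ± 1.62, adjusted p = 0.0212).

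Of the receptor and costimulation genes 1 of 10 was called, Cd6, at 0.864, 0.799 and 0.705 CPM in control8 and 3.63, 5.78 and 2.12 CPM in gain8 (2.28 ± 0.64, adjusted p = 0.0151). The CD3 genes showed the library pattern most plainly. Cd3e was 0.987, 0.983 and 0.906 CPM in control8 and 1.03, 4.22 and 0.813 CPM in gain8 (1.07 ± 0.65, adjusted p = 0.245). Gain8 replicate 2 lay far above the controls and the others lay near them. Cd3d (0.889, 4.01 and 0.813 CPM in gain8) was 0.807, 3.64 and 0.738 times the control8 mean. Cd3g (1.21, 6.97 and 0.742 CPM in gain8) was 0.801, 4.62 and 0.492 times that mean, and its level in replicate 3 was the lowest of all libraries. Lck, the kinase bound to CD4 and CD8, was 3.13, 8.40 and 2.62 CPM in gain8. None of the 5 tested genes of receptor-proximal signalling was called (median 0.92).

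The CD4 and regulatory genes had other values. Cd4 was 3.30, 3.38 and 2.58 CPM in control8 and 2.06, 3.54 and 1.34 CPM in gain8 (-0.42 ± 0.55, adjusted p = 0.617), with overlapping groups. Foxp3 was 0.648, 1.11 and 0.705 CPM in control8 and 1.74, 0.510 and 0.813 CPM in gain8 (0.31 ± 0.48, adjusted p = 0.674). Gain8 replicate 2, highest for the CD8 genes, was the lowest for Foxp3. Il2ra, the high-affinity interleukin-2 receptor chain, was 10.6, 7.55 and 8.98 CPM in gain8 against 5.49, 6.02 and 3.96 CPM in control8 and missed the threshold (0.81 ± 0.30, adjusted p = 0.0578). Of Tcf7, Lef1 and Bcl11b, transcription factors of naive T cells and of the T lineage, none was called. Tcf7 was 2.34, 7.13 and 2.22 CPM in control8 and 2.74, 3.20 and 1.13 CPM in gain8.

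Read by library, gain8 replicate 1 lay above all 3 controls for 23 of 40 members, replicate 2 for 35 and replicate 3 for 15. The shares over all genes were 36.4%, 38.8% and 36.9%, against 57.5, 87.5 and 37.5 percent of members. Replicate 3 was thus at the background. Without gain8 replicate 2, 1 of the 6 calls was left, Il7r (3.74, adjusted p = 0.000884). In that fit Cd8a was 1.57 (adjusted p = 0.238), Nkg7 0.57 (adjusted p = 0.498), Cd3e -0.05 (adjusted p = 0.972) and the member median 0.23 (all genes: -0.03). The other lost calls were Cd6 at 1.87 (adjusted p = 0.0774), Gzmk at 3.58 (adjusted p = 0.166) and Eomes at 1.05 (adjusted p = 0.273). Leaving out control8 replicate 1, 2 or 3 gave 3, 2 and 3 calls, although the fold changes moved less: Cd8a was 2.95 to 3.71 and Nkg7 1.79 to 1.99 in those fits. Shares of all genes called in the left-out fits are not given here. These counts therefore describe the members alone, and the part of having fewer libraries was not tested.

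**Figure D2:**
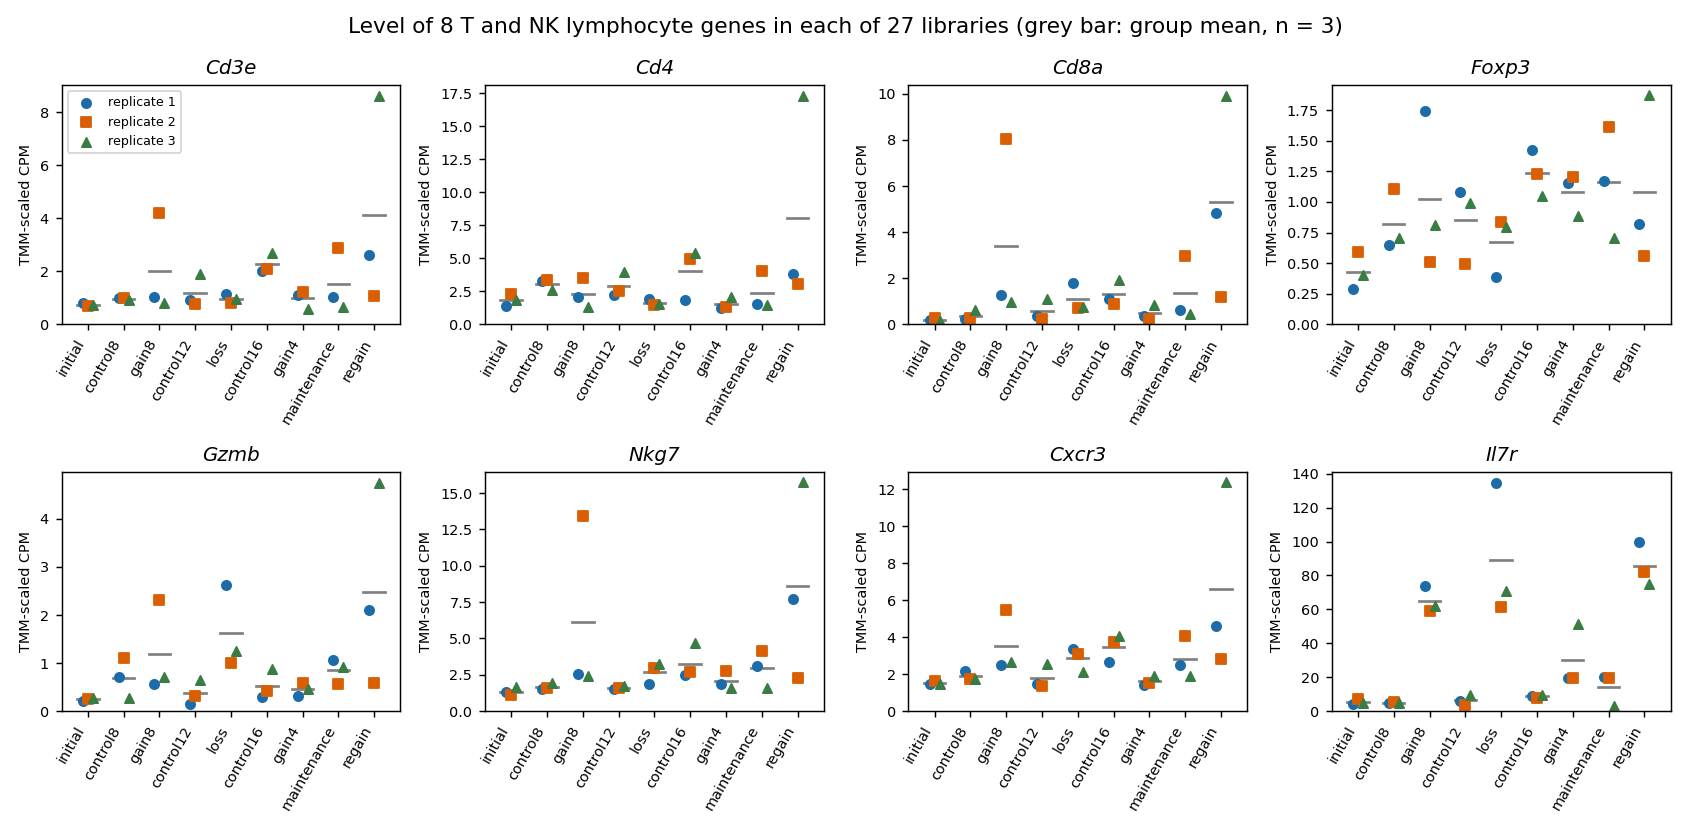
TMM-scaled CPM of 8 members in each of 27 libraries, by group, with the group mean as a grey bar (n = 3, linear axes from 0). Il7r is high in every library of gain8, loss and regain, and the Cd3e and Cd4 panels show single high libraries in regain, at 8.62 and 17.3 CPM. Cd8a is highest in regain replicate 3, at 9.90 CPM, and is also above all control16 libraries in regain replicate 1.

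After 4 weeks back on normal diet, 4 of 40 members were called higher in loss than in control12 and 0 lower, against 11.8% of all genes called higher. The median member was 0.19 (all genes: -0.04), with 22 of 40 above 0. All 3 loss libraries were above all controls for 9 members, where 20% of all genes were, and below them for 1, Cd4, where 17.1% of all genes were. Il7r was 6.27, 3.67 and 9.82 CPM in control12 and 135, 61.4 and 71.0 CPM in loss (3.75 ± 0.53, adjusted p = 6.88e-05). Macrophage markers summed to 11613, 4263 and 4059 CPM in loss, and the library with most Il7r was the one with most of these.

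The other 3 calls in loss were genes of killing and of signalling. Gzmb (chr14:56258838-56262260, minus strand), a granzyme of activated killer cells, was 0.155, 0.305 and 0.658 CPM in control12 and 2.62, 1.01 and 1.26 CPM in loss (2.09 ± 0.71, adjusted p = 0.0414). Ncr1, an activating receptor of NK cells, was 0.735, 0.726 and 0.958 CPM in control12 and 1.29, 1.51 and 2.78 CPM in loss (1.20 ± 0.42, adjusted p = 0.0492). Lat was 1.74, 1.53 and 2.24 CPM in control12 and 8.45, 3.63 and 3.31 CPM in loss (1.48 ± 0.51, adjusted p = 0.0465). None of these groups overlapped. Cd3e at 1.15, 0.806 and 0.959 CPM in loss (-0.31 ± 0.65, adjusted p = 0.77) and Cd4 at 1.92, 1.48 and 1.52 CPM (-0.83 ± 0.55, adjusted p = 0.299) were not called. The calls other than Il7r were not stable: the count was 1 without loss replicate 1, without control12 replicate 1 and without control12 replicate 2, and 2 without control12 replicate 3. It was 5 without loss replicate 2 and 3 without loss replicate 3. Shares of all genes called in these fits are not given here, so the counts describe the members alone. Thy1 was 74.8 CPM in loss replicate 1 and 16.8 and 17.0 CPM in the others.

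After 8 weeks back on normal diet, 0 of 40 members were called in maintenance against control16 by edgeR's quasi-likelihood test, as were 0% of all genes. At an unadjusted p under 0.05 in that test there was 1 member of 40, where 20.4% of all genes were. DESeq2 called 0 members and 824 of all genes. The median member was -0.30 (all genes: 0.02). Maintenance replicate 2 was the highest of its group for 31 members, and replicate 3, the library with high albumin, was below all control16 libraries for 37, where 38.1% of all genes were. Il7r was 19.95, 19.9 and 3.09 CPM in maintenance and 9.10, 7.78 and 9.36 CPM in control16 (0.71 ± 0.48, adjusted p = 0.417), so that replicate 3 lay below the controls and the other libraries above them. Cd8a was 0.641, 2.96 and 0.442 CPM, and Thy1 12.4, 14.6 and 15 CPM.

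The gain4 group, at 4 weeks of high-fat diet, had lower fitted values than control16 for 35 of 40 members, with a median of -0.71 (all genes: -0.02). Yet 0 members were called lower and 1 higher, against 3.8% of all genes called higher. That 1 was Il7r, at 19.6, 19.8 and 51.2 CPM against 9.10, 7.78 and 9.36 CPM (1.79 ± 0.49, adjusted p = 0.0373). Without gain4 replicate 3 it was 1.17 and no longer called (adjusted p = 0.143). The call was also lost without each of the 3 control16 libraries, where the fold change was 1.83, 1.71 and 1.85. All 3 gain4 libraries lay below all controls for 16 members, where 11.3% of all genes did. Cd3e was among these, at 1.12, 1.24 and 0.582 CPM in gain4 and 2.02, 2.08 and 2.70 CPM in control16 (-1.21 ± 0.65, adjusted p = 0.259). Cxcr3, a chemokine receptor that guides activated T and NK cells, was 1.40, 1.52 and 1.93 CPM in gain4 and 2.66, 3.72 and 4.05 CPM in control16 (-1.10 ± 0.43, adjusted p = 0.119).

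For the second period of high-fat diet, regain was compared with control16, gain4 and maintenance. These comparisons share the regain libraries, and the first shares its controls with the 2 comparisons above, so their values are given side by side and not as independent results. Against control16, 2 members were called higher and 0 lower, against 12.5% of all genes called higher. The median was 0.93 (all genes: -0.01), with 37 of 40 above 0. Against gain4, 11 members were called higher, against 4.12% of all genes, with a median of 1.64 (all genes: 0). Against maintenance, 11 members were called higher, against 13.9% of all genes, with a median of 1.23 (all genes: -0.07). No member was called lower in any of the 3.

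The calls against control16 were Il7r and Gzmb. Il7r was 99.5, 81.9 and 75.0 CPM in regain, above every control16 library (3.29 ± 0.51, adjusted p = 0.000141). It was the 1 member with all regain libraries above all controls, where 23.1% of all genes were. Macrophage markers summed to 8520, 4337 and 6652 CPM in regain and to 1446 to 1831 CPM in control16, and 7 of 8 were called higher. Gzmb was 2.10, 0.586 and 4.75 CPM in regain and 0.300, 0.410 and 0.878 CPM in control16 (2.21 ± 0.70, adjusted p = 0.0272), and the groups overlapped through regain replicate 2.

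By library, regain replicate 1 was above all control16 libraries for 21 members, replicate 2 for 3 and replicate 3 for 38. That is 52.5, 7.5 and 95 percent of members, against 36%, 34.5% and 37.4% of all genes. Replicate 2 lay below all controls for 27 members, where 32.7% of all genes did. The groups therefore overlapped for nearly all members, although replicate 3 was far above. Cd3e was 2.62, 1.08 and 8.62 CPM in regain and 2.02, 2.08 and 2.70 CPM in control16 (0.86 ± 0.64, adjusted p = 0.35). Cd4 (chr6:124864692-124888221, minus strand) was 3.82, 3.05 and 17.3 CPM in regain and 1.83, 4.98 and 5.37 CPM in control16 (0.99 ± 0.54, adjusted p = 0.199). Cd8a was 4.83, 1.17 and 9.90 CPM in regain and 1.09, 0.887 and 1.93 CPM in control16 (2.02 ± 0.86, adjusted p = 0.0954).

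Other members had the same spread in regain. Cd3g was 6.63, 1.17 and 11.8 CPM and Cd8b1 3.52, 0.647 and 5.81 CPM. Nkg7 was 7.71, 2.31 and 15.7 CPM, and Gzmk 2.36, 0.0925 and 2.27 CPM, with replicates 1 and 3 alike. For some members replicate 3 stood further from the rest: Cd5, an inhibitory receptor partner, was 1.35, 1.02 and 8.02 CPM, Tbx21, the transcription factor of type 1 responses, was 1.31, 0.925 and 5.90 CPM, and Il2rb, the shared chain of the interleukin-2 and interleukin-15 receptors, was 9.70, 5.36 and 37.4 CPM. In all of these but Gzmk, which was highest in replicate 1, replicate 3 was highest and replicate 2 lowest. Ifng, the main cytokine of type 1 lymphocytes, was 0.412, 0 and 1.51 CPM, and 7 of the 27 libraries had 0 reads of it.

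Compared with gain4, regain had higher levels of 2 of 10 receptor and costimulation genes (Cd28 and Cd5), 1 of 5 proximal signalling genes (Lck), Cd4, Cd8a, both homing receptors and 4 of 11 genes of killing and NK cells. Cd4 was 1.26, 1.34 and 2.08 CPM in gain4, below every regain library (2.36 ± 0.57, adjusted p = 0.0315). Cd8a was 0.351, 0.241 and 0.858 CPM in gain4, also below every regain library (3.43 ± 0.92, adjusted p = 0.0379). Cd28, the main costimulatory receptor, was 1.30, 1.03 and 2.18 CPM in gain4 and 3.44, 2.53 and 8.38 CPM in regain (1.67 ± 0.42, adjusted p = 0.0355). All 3 regain libraries were above all gain4 libraries for 9 members, where 14.6% of all genes were.

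Cxcr3 was 4.61, 2.84 and 12.4 CPM in regain, above each gain4 library (2.03 ± 0.44, adjusted p = 0.029). Cxcr6, a receptor of lymphocytes that stay in tissue, was 2.59, 2.89 and 1.75 CPM in gain4 and 8.12, 2.71 and 11.4 CPM in regain (1.62 ± 0.43, adjusted p = 0.0379), and regain replicate 2 overlapped with gain4. The killing and NK genes called were Il2rb (2.23 ± 0.52), Tbx21 (1.85 ± 0.51), Gzmb (2.44 ± 0.71) and Nkg7 (2.04 ± 0.60), with adjusted p of 0.0299 to 0.0479. Gzma was 2.66, 5.00 and 1.87 CPM in gain4 and 4.31, 1.33 and 5.24 CPM in regain and was not called (0.19 ± 0.48, adjusted p = 0.843). Ifng had 61 reads in regain and 3 in gain4, a ratio of 19.9 with a counting interval of 6.49 to 99.1, and was not called (adjusted p = 0.0743). Of the 4 regulatory genes 0 were called by edgeR's quasi-likelihood test. At an unadjusted p under 0.05 in that test there was 1, Icos (adjusted p = 0.0605), where 25.2% of all genes were. Foxp3 was 0.01 ± 0.48 (adjusted p = 0.999).

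Compared with maintenance, the calls were Il7r, Cxcr6, Gzma, Cd6, Thy1, Cd4, Il2rb, Prf1, Cxcr3, Cd28 and Tbx21, with fold changes of 1.17 (Cd28) to 2.57 (Il7r) and adjusted p of 0.000806 to 0.0483. Gzma, a granzyme of NK and CD8 cells, was 1.32, 0.976 and 1.02 CPM in maintenance, below each regain library (1.71 ± 0.51, adjusted p = 0.0161). Prf1, perforin, was 0.377, 0.908 and 0.839 CPM in maintenance and 1.09, 1.14 and 3.48 CPM in regain (1.42 ± 0.49, adjusted p = 0.0361). Thy1 was 24.4, 34 and 44.7 CPM in regain (1.30 ± 0.40, adjusted p = 0.0206). All regain libraries were above all maintenance libraries for 5 members, where 17.6% of all genes were.

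**Figure D3:**
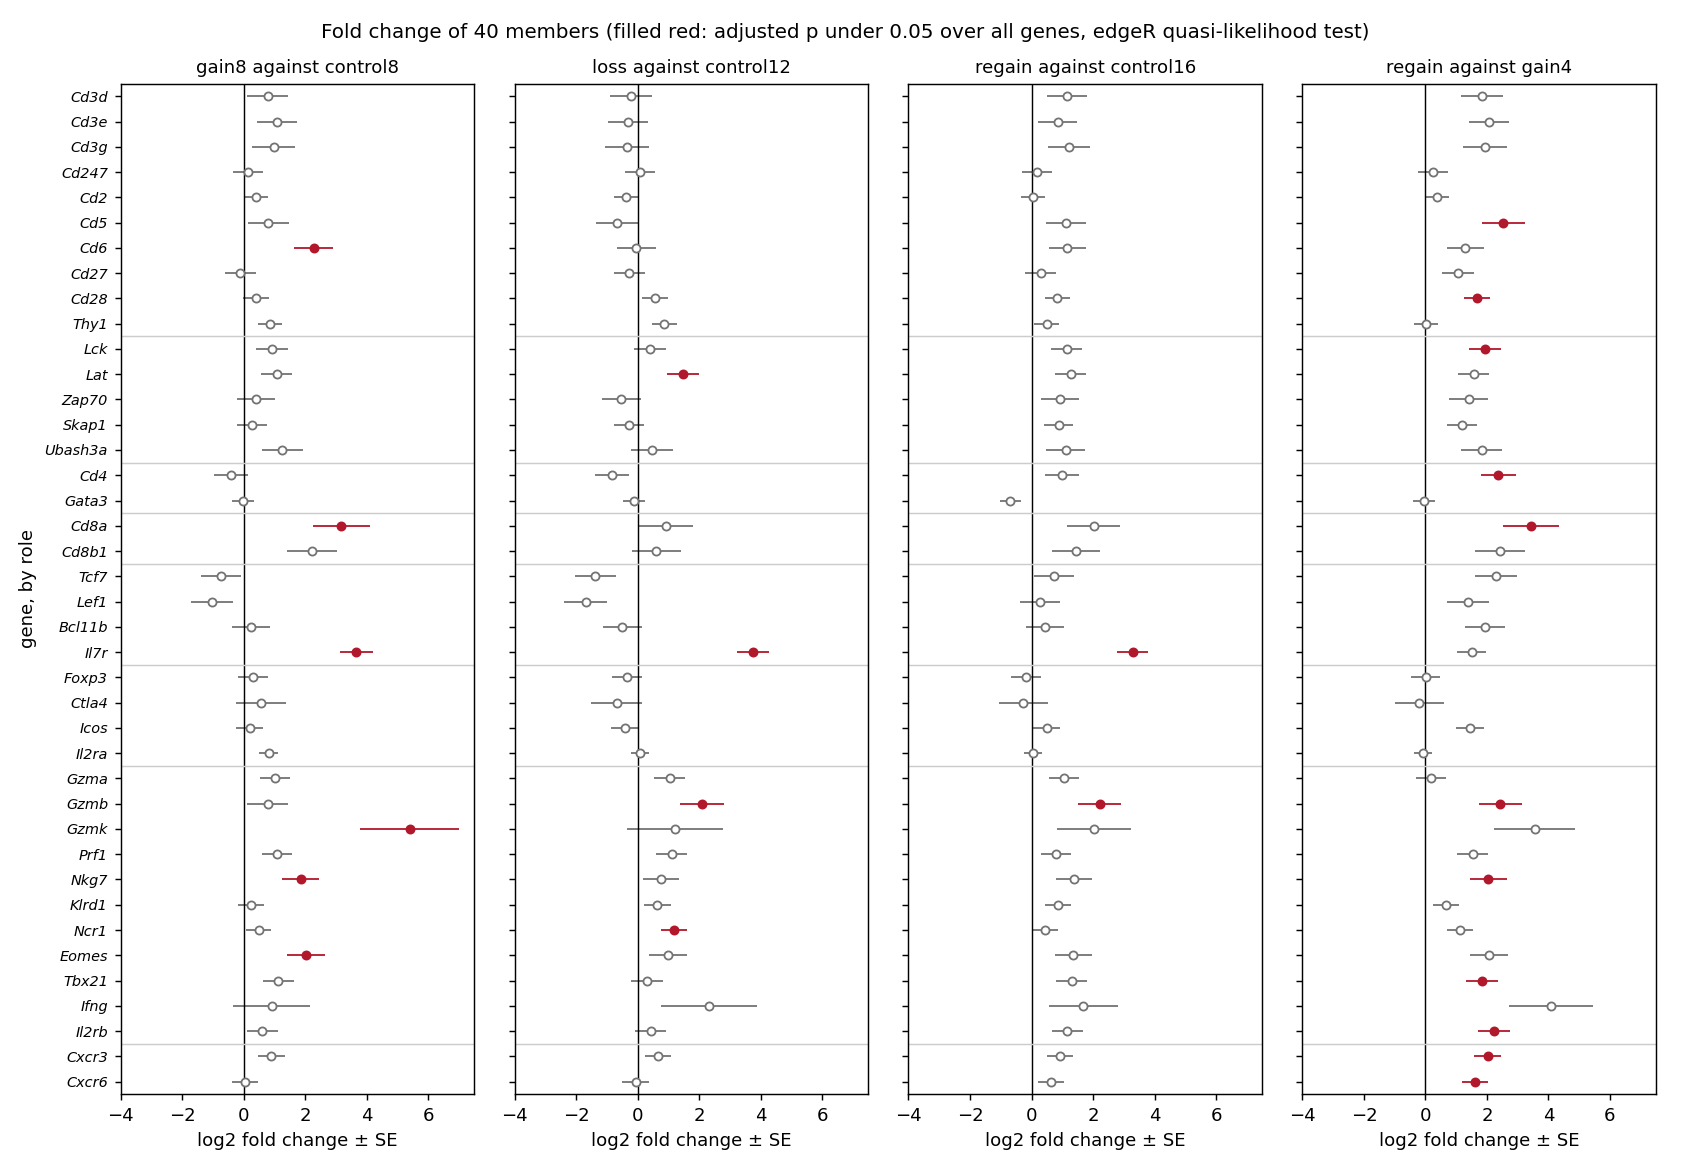
Log2 fold change ± SE of 40 members (rows, by role) in the comparisons of gain8, loss and regain named above each panel, with filled red points for an adjusted p under 0.05 over all genes (edgeR quasi-likelihood test). Il7r is filled and far to the right in gain8, loss and regain against their controls. In gain8 and regain most other points lie right of 0, and most of these were not called. In loss, 22 of 40 points lie right of 0.

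The number of regain calls moved with single libraries. Shares of all genes called with 1 library left out are not given here, so these counts describe the members alone. Against control16 the count of calls was 1 without regain replicate 3 and 10 without regain replicate 2. Without control16 replicate 1 or 2 it was 1. Against gain4 it was 0 without regain replicate 3, gain4 replicate 1 or gain4 replicate 2, and 23 without regain replicate 2. There Cd4 was 1.13 without regain replicate 3 but 2.17 and 2.27 without gain4 replicates 1 and 2, and Il2rb 1.02 but 2.15 and 1.96. Against maintenance it was 1 without regain replicate 3, 23 without regain replicate 2, 17 without maintenance replicate 2 and 3 without maintenance replicate 1 or 3. Without regain replicate 3 the member median was 0.07 against control16 (all genes: -0.02) and 0.87 against gain4 (all genes: 0). In that fit Cd3e was -0.30 and Cd4 -0.24 against control16, while Il7r was 3.38 (adjusted p = 0.000497). Il7r kept its call with each of the 6 libraries left out in gain8, loss, regain against control16 and regain against maintenance.

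**Figure D4:**
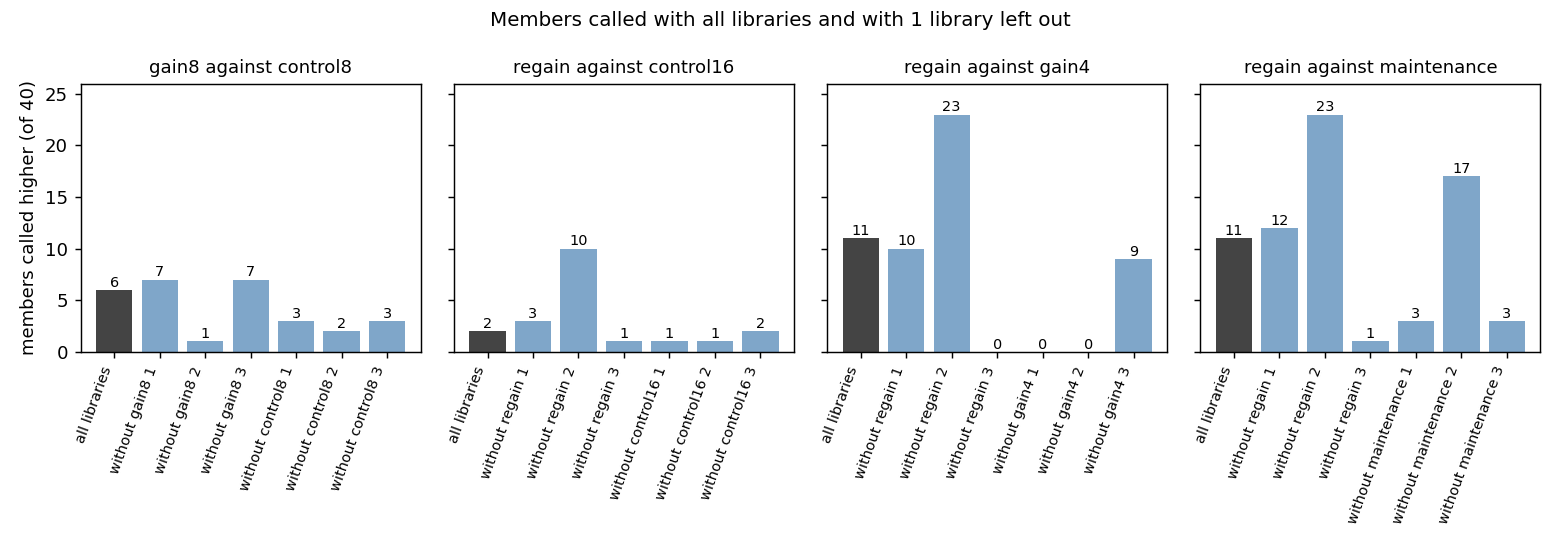
Number of members called higher, of 40, with all libraries and with 1 library left out, for the comparisons named above each panel. Leaving out regain replicate 2 raises the count to 10, 23 and 23 in the regain comparisons, and leaving out regain replicate 3 lowers it to 1, 0 and 1. The shares of all genes called in these fits are not shown.

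The libraries with high and with low Lars2 were also fitted apart. These fits leave 1 library in some groups, which is assumed to vary like the others: gain8, control8, gain4 and maintenance in the high set, and control12, loss, control16 and regain in the low set. Gain8 against control8 in the high set and loss and regain against their controls in the low set thus set 1 library against 1. The maintenance library of the high set is replicate 3, the library with high albumin, so the maintenance values of that set rest on it. The high set gave 0 called members in gain8 (all genes: 0), 1 in loss (6104), 2 in maintenance, both lower (5295), 0 in gain4 (5298), and 3 in each regain comparison (4905, 5246 and 5259 genes against control16, gain4 and maintenance). The low set gave 3 called members in gain8 (all genes: 4083), 0 in loss (7), 0 in maintenance (0), 0 in gain4 (2), and 1, 0 and 2 in the regain comparisons (744, 0 and 2065).

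The subsets were next set side by side. In gain8 against control8 the median log2 fold change was 2.71 over the 2 CD8 genes, 1.01 over 11 genes of killing and NK cells, 0.45 over 4 regulatory genes and -0.22 over the 2 CD4 helper genes, where all genes had -0.02. In regain against control16 these medians were 1.74, 1.31, -0.07 and 0.15. In regain against gain4 they were 2.93, 2.04, -0.04 and 1.15. These are descriptions of chosen genes, and no test was made between the subsets in the fits.

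Summed levels show which libraries carry them. The CD8 genes summed to 0.740, 0.645 and 1.14 CPM in control8, to 1.96, 13.2 and 1.70 CPM in gain8 and to 8.35, 1.82 and 15.7 CPM in regain. The genes of killing and NK cells summed to 17.2, 14.6 and 13.8 CPM in control8, to 20.1, 50.7 and 18.5 CPM in gain8 and to 37.2, 14.7 and 87.0 CPM in regain. Both were highest in gain8 replicate 2 and regain replicate 3. The regulatory genes, whose sum is mostly Il2ra, were 7.77, 8.42 and 6.58 CPM in control8, 14.9, 10.3 and 11.1 CPM in gain8 and 7.53, 10.7 and 16.5 CPM in regain. The CD4 helper genes summed to 3.41, 4.32 and 2.26 CPM in gain8 and to 4.46, 4.5 and 18.7 CPM in regain, so that 1 regain library held most of the CD4 signal.

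Within the regulatory genes the members did not share 1 order. Foxp3 was 1.42, 1.23 and 1.05 CPM in control16, 1.16, 1.21 and 0.889 CPM in gain4 and 0.824, 0.555 and 1.88 CPM in regain (-0.18 ± 0.48 against control16, adjusted p = 0.819). Ctla4, an inhibitory receptor, was 0.412, 0.154 and 2.27 CPM in regain, so that replicate 2 was low and replicate 3 high. Icos, a costimulatory receptor, was 1.57, 0.771 and 4.66 CPM. Il2ra was 4.72, 9.25 and 7.72 CPM, with the lowest value in replicate 1. Gata3, a transcription factor of type 2 helper cells, was 0.636, 1.45 and 1.42 CPM in regain and 2.02, 2.15 and 1.49 CPM in control16. It was the 1 member with all regain libraries below all controls, where 19.6% of all genes were, and it was not called (-0.68 ± 0.36, adjusted p = 0.176).

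The ratio of Cd8a to Cd4, per kb of exon, was added after the values were seen, as a measure within each library. It was 0.0963, 0.105 and 0.301 in control8 and 0.8, 2.92 and 0.915 in gain8, with no overlap. In control12 it was 0.200, 0.117 and 0.361 and in loss 1.22, 0.615 and 0.644, again with no overlap. Both differences had the smallest p that 3 against 3 libraries can give (exact permutation test on log2 ratios, two-sided, p = 0.1, adjusted p = 0.35 over 7 comparisons), with mean log2 differences of 3.15 and 1.94. Gain8 replicates 1 and 3, which were near control levels of Cd3e, had ratios above all control8 libraries, from 36 and 27 reads of Cd8a and 58 and 38 of Cd4. The control ratios rest on fewer reads of Cd8a in most libraries: 8, 9 and 18 in control8 and 9, 6 and 37 in control12.

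In regain the ratio was 1.63, 0.494 and 0.736 and in control16 0.762, 0.229 and 0.462 (log2 difference 0.96, exact permutation p = 0.3, adjusted p = 0.525). Regain replicate 3, with the most Cd8a, was in the middle of its group in ratio, since its Cd4 was high as well. The ratio was 0.358, 0.231 and 0.530 in gain4 and 0.534, 0.945 and 0.379 in maintenance, with p of 0.8 and 0.5 against control16 (exact permutation tests). Values in the initial group were 0.165, 0.149 and 0.0920, close to control8, from 5, 8 and 4 reads of Cd8a.

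**Figure D5:**
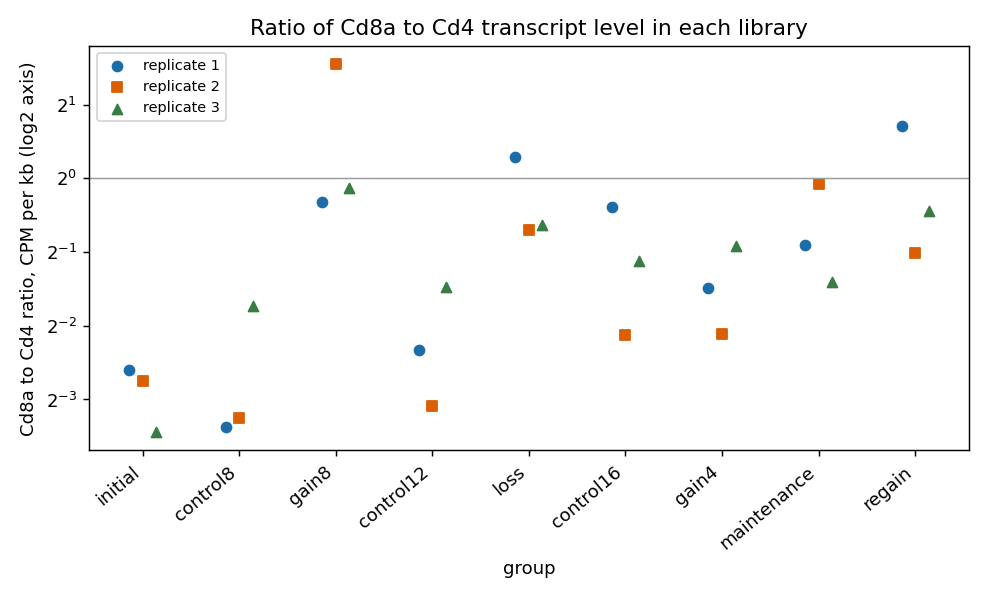
Ratio of Cd8a to Cd4, each as CPM per kb of exon, in each library by group (log2 axis, grey line at 1). All gain8 and loss libraries lie above their controls, and the control8 and initial libraries lie between 0.0920 and 0.301.

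Whether the effect of diet on members differed between settings was tested as a difference of differences. Between loss against control12 and gain8 against control8, 0 of 40 members were called (0% of all genes called higher). At an unadjusted p under 0.05 by edgeR's quasi-likelihood test there was 1 member, where 6.91% of all genes were. Between regain against control16 and gain8 against control8, 0 were called (0% of all genes called higher). At that p there were 0 members, where 6.32% of all genes were. No difference between these settings was detectable with 3 libraries per group.

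Other genes of the same pathways were read from lists that hold no member. Some lists share genes, and a shared gene is counted in each. Ccl5 is in the lists of killing and NK cells and of chemokines. Tigit, Tnfrsf4 and Tnfrsf18 are in those of checkpoint receptors and of regulatory T cells. Of 20 genes of T cell signalling, 7 were called higher in gain8, 6 in loss, 8 in regain against control16, 6 in regain against gain4 and 11 in regain against maintenance. The shares of all genes called higher, which also stand beside the lists that follow, were 12% in gain8, 11.8% in loss, and 12.5%, 4.12% and 13.9% in regain against control16, gain4 and maintenance. Vav1, an exchange factor of all blood cells (1.88 in gain8), and Fyb, an adaptor also found in myeloid cells (2.15 in gain8), were called in gain8, loss and regain. Several genes of this list are also made by myeloid cells, and 7 of 8 macrophage markers were called higher in gain8 and in regain against control16.

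Of 15 checkpoint and activation receptors, 3 were called higher in gain8, in loss and in regain against control16: Cd44, Slamf7 and Havcr2. Cd44, an adhesion receptor of many cell types, was 30.7, 34.1 and 26.2 CPM in control8 and 182, 154 and 161 CPM in gain8 (2.45 ± 0.39, adjusted p = 0.000306), with none of the spread of Cd3e. Against gain4, regain had 4 called higher, with Tigit, an inhibitory receptor of T and NK cells, at 2.87 ± 0.83 (adjusted p = 0.0468). Of 14 further genes of killing and NK cells, 1 was called in gain8, Ccl5, a chemokine of effector lymphocytes, at 8.39, 37.4 and 6.33 CPM (2.06 ± 0.62, adjusted p = 0.0223). It was highest in replicate 2, as the members were.

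Of 7 further genes of regulatory T cells, 1 was called higher in gain8, the cytokine Il10 (2.83 ± 0.80, adjusted p = 0.015), which macrophages make as well. The transcription factors Ikzf4 (-1.67 ± 0.52, adjusted p = 0.0249) and Ikzf2 (-0.91 ± 0.31, adjusted p = 0.0417) were called lower in gain8, where 9.52% of all genes were. Of 17 chemokines and cytokines that act on lymphocytes, 7 were higher in gain8, 6 in loss, 8 in regain against control16, 3 in regain against gain4 and 8 in regain against maintenance. The ligands of Cxcr3 were among those higher against gain4. Cxcl9 was 26.8, 39.7 and 24.0 CPM in gain4 and 142, 28.7 and 381 CPM in regain (2.61 ± 0.62, adjusted p = 0.0299), and Cxcl10 was 11.2, 3.36 and 41.8 CPM in regain (2.82 ± 0.70, adjusted p = 0.034). Both had the library order of Cxcr3 in regain.

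Markers of other lymphoid tissue were read in the same libraries. B cell markers summed to 29.0, 15.3 and 52.4 CPM in control8 and 11.8, 17.3 and 11.2 CPM in gain8. Of these, 6 of 10 were called lower, against 9.52% of all genes called lower. In regain they summed to 36.7, 13.7 and 26.7 CPM, with the highest value in replicate 1 and not in replicate 3. Control12 replicate 3, with 65.6 CPM against 13.4 and 13.6 CPM in its group, also had the highest Tcf7 of control12, at 12.5 CPM against 2.09 and 2.25 CPM, and the highest level of its group for 31 of 40 members. Lymph node stroma markers summed to 54.6, 71.2 and 34 CPM in control8 and 9.28, 4.18 and 9.37 CPM in gain8. The list was split there: of 6 tested, 4 had fold changes below 0 and 2 above. In gain8, 1 was called higher and 0 lower (12% of all genes called higher). In regain against control16 it was also 1 and 0 (12.5%). In regain the lymph node stroma markers summed to 39.9, 20.04 and 11.5 CPM, lowest in the library where most members were highest. In control12 they summed to 11.1, 33.2 and 52.2 CPM, highest in replicate 3, as most members were. Glycam1, a defining marker of lymph node vessels, was at 0 in all libraries but control16 replicates 2 and 3 (0.137 and 0.0338 CPM). The part of lymph node tissue in the library differences was not tested.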

How the data were processed

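RNA of epididymal white adipose tissue was counted in 27 libraries, made with a TruSeq RNA Sample Preparation kit per the labels' protocols. Reads were processed with Trimmomatic 0.33, TopHat2 2.0.13 and HTSeq 0.6.0 on mm10, per the submitters' processing notes. The authors deposited raw counts for each gene, in 43616 rows whose 156 repeated names hold identical values and were used once. The deposited FPKM are scaled for exonic length and library size, as read from the values, and were used only as an alternative. The strand setting and annotation of the counting are not given in the sources used here. Of the members, 19 overlap another gene, 6 of them a protein-coding one (Cd247, Cd27, Gata3, Foxp3, Gzmk and Cxcr6).

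Names were kept by filterByExpr (minimum count 10, minimum total 15), scaled by TMM (factors 0.814 to 1.11) and fitted with edgeR 4.0.16 in R 4.3.3, all 27 libraries in 1 model with a mean per group. P-values were adjusted by Benjamini-Hochberg over 17821 names, and called means an adjusted p under 0.05. The SE is the fold change over the root of the test statistic. The code was tested on simulated counts. Values were given for 14 anchor members where they help a comparison, for up to 8 called members with the smallest adjusted p, and for up to 3 called genes of each list of other genes, and further members were named after their values were seen.

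The members and lists were chosen with earlier results of these data known. The Lars2 division at 1000 CPM, the Cd8a to Cd4 ratio, the promoter motifs and the counts by library were added after the values were seen. The alternatives used DESeq2 1.42.0, RLE scaling, no filter, compared groups only, replicate number as a block, limma 3.58.1 on log2(FPKM + 1) and log2(FPKM + 0.1), the Lars2 set as a term or alone, 3 libraries left out together and each library left out in turn.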

Additional observations from a re-analysis of the deposited data

How the results depend on the processing

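Values are numbers of members called, of 40 tested, except 41 with no filter and in the low Lars2 set, and 37 to 39 with the compared groups only. No named member that was called changed direction under any alternative. For the fits with 1 library left out, shares of all genes called are not given here. With 1 library left out the count ranged over 1 to 7 in gain8, 1 to 5 in loss, 0 to 1 in maintenance, 0 to 1 in gain4, 1 to 10 in regain against control16, 0 to 23 in regain against gain4, 1 to 23 in regain against maintenance and 0 in both differences. With limma on log2(FPKM + 1) and log2(FPKM + 0.1), gain8 gave 1 and 2, loss 1 and 2, gain4 0 and 0, regain against gain4 7 and 5, and regain against maintenance 7 and 7. With no filter, loss gave 1, regain against gain4 3 and regain against maintenance 7. With the compared groups only, loss gave 1, gain4 0, regain against control16 1, regain against gain4 0 and regain against maintenance 1. DESeq2 gave 22 for regain against gain4. With maintenance replicate 3, loss replicate 1 and control12 replicate 3 left out together, loss gave 1, regain against gain4 21 and regain against maintenance 4. The high Lars2 set alone gave 0 in gain8, 1 in loss, 2 in maintenance, 0 in gain4, and 3 in regain against gain4 and against maintenance. The low set alone gave 3 in gain8, 0 in loss, 0 in gain4, and 1, 0 and 2 in regain against control16, gain4 and maintenance. The cause of these changes was not tested, and the left-out and set fits use fewer libraries. Deviations of replicates with the same number had correlations of -0.177 to 0.372, in 0 of 7 comparisons all above 0.1, so the numbers were not read as pairing. The replicate block gave 2 in loss, 0 in gain4 and 7 in regain against gain4.

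Counts over all genes moved too. Gain8 went from 3833 genes to 5898 with the compared groups only. Loss went from 3564 to 1096 with the compared groups only and 1479 with the 3 libraries out. Gain4 went from 1037 to 641 (no filter), 2105 (DESeq2), 0 (compared groups) and 2624 (3 libraries out). Maintenance went from 0 to 149 (RLE), 217 (no filter) and 824 (DESeq2). Regain against gain4 went from 978 to 239 (no filter), 2145 (DESeq2), 0 (compared groups), 606 (block) and 2916 (3 libraries out), and regain against maintenance from 4790 to 1580 (compared groups). The share called higher went from 58.8% to 76.4% in loss, 57.4% to 69.3% in regain against control16, 75.2% to 93% against gain4 and 51.6% to 76.7% against maintenance with log2(FPKM + 1), and to 64.2% with DESeq2 in regain against gain4. The low Lars2 set alone gave 7 genes in loss, 2 in gain4, 744 in regain against control16, 0 against gain4 and 2065 against maintenance, and the high set 0 in gain8, 6104 in loss, 5295 in maintenance, 5298 in gain4 and 5246 in regain against gain4. Of the members, 24 of 40 had a median under 50 reads, and how far depth or the spread between libraries limits their calls was not tested.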
